A study of Sus scrofa with 15 samples.

Results

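Oocyte transcription factors set up and keep the gene programme of the female germ cell. FIGLA, NOBOX, LHX8 and SOHLH2 act in the growing oocyte of the mouse ovary, where they switch on zona pellucida genes, secreted growth factors and other maternal genes. TBPL2 replaces the general TATA-binding protein in growing mouse oocytes. POU5F1, SALL4 and KLF4 are best known from pluripotent cells, FOXO3 holds primordial follicles at rest in the mouse, and YAP1 is the co-activator that the Hippo kinases restrain. A fully grown GV (germinal vesicle) oocyte is almost silent in transcription, and its stored RNA is used and removed as it matures to metaphase II (MII).

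The genes were chosen by name and comprised these 10 factors. A gene identifier was at hand for 9 of them, all 9 had counts, and all 9 passed the filter on low counts, out of 13219 genes tested. *POU5F1* was not analysed here. The 15 pig libraries held 15 pooled oocytes each, from sow ovaries collected at an abattoir, and came from 5 collections. The 5 GV libraries were made from oocytes of fresh cumulus oocyte complexes with no culture. The 5 MII and 5 ‘damaged’ libraries were made after *in vitro* maturation of the complexes for 44 h by the labels (the methods give a range that ends there), from oocytes with a first polar body and from oocytes without one, and MIX means both of these groups together. The maturation medium held the gonadotrophins PMSG and HCG, EGF, insulin, cysteamine, pyruvate, antibiotics and sow follicular fluid, so stage, culture and these agents cannot be told apart in a comparison of MIX with GV oocytes. All oocytes were stripped of cumulus cells with hyaluronidase, and no source used here names a genetic change. Breed and age were not given in the sources used here.

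GV replicate 3 had the fewest estimated counts, 6.40 M, and was left out of the tests, which left 4 GV libraries. The other libraries held 12.0 to 23.6 M estimated counts. For 7 of the 15 libraries, GV replicates 1, 2 and 3, MII replicates 1 and 2 and ‘damaged’ replicates 1 and 2, the deposited gene table carried a name that went against its totals, and their labels here are those of the transcript files. Values without them are given where a member's call changed. The summed level of 7 oocyte markers was 9122 to 10586 CPM (counts scaled to the size of the library) in GV, 4421 to 6482 in MII and 5032 to 6855 in ‘damaged’ oocytes. The summed level of 11 cumulus and granulosa cell markers was 9.19 to 11.7 CPM in GV, 17.4 to 27.2 in MII and 21.8 to 28.0 in ‘damaged’ oocytes. Most of the latter sum was *FST*, and the follicle-stimulating hormone receptor *FSHR* stayed at or below 0.697 CPM in each library. *PTGS2* was at 0.421 to 1.06 CPM in GV, 1.17 to 1.87 in MII and 1.20 to 2.10 in ‘damaged’ libraries, and *TNFAIP6* reached 3.18 CPM in MII. Of the 11 markers, 7 stayed under 1 CPM in all GV libraries tested, 8 in all MII and 8 in all ‘damaged’ libraries. The 3 theca and stroma markers summed to 3.85 to 10.9 CPM over the 14 libraries, and the 2 blood markers to 0.0971 to 1.91 CPM. The part of these levels in the results below was not tested.

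Between GV and MIX oocytes, *FIGLA*, *NOBOX* and *LHX8* fell by 6.36 to 8.73 times and *FOXO3* by 1.98 times. *YAP1* rose by 1.48 times with the scaling used throughout, a direction that turned on plain library sizes. *SOHLH2*, *TBPL2*, *SALL4* and *KLF4* did not pass the test. A gene was called at a false discovery rate (FDR) under 0.01 in limma, adjusted over all genes tested, and was a differentially expressed gene (DEG) if its absolute log2 fold change was also over 2. By that rule 4 of the 9 genes were called lower and 1 higher, against 37.0% lower and 30.0% higher among all genes tested, and 3 were DEGs lower, against 16.7% of all genes. The shares among these few genes were not tested against those of all genes.

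Levels are given as CPM with TMM factors, which assume that most genes do not change between libraries. Yet 37.0% of all genes were called lower and 30.0% higher in MIX with these factors. With them all genes had a median change of -0.16 on the log2 scale, MIX minus GV. On library sizes alone it was -1.06. The TMM factors of GV libraries lay between 1.35 and 1.73 and those of MIX libraries between 0.795 and 0.922. Each library gives shares of its own RNA, so a fall of 1 gene and a rise of the other genes cannot be told apart. The amount of RNA per oocyte cannot be read from these shares. Levels here are of RNA captured as cDNA with the SMART-Seq HT kit. Whether capture was alike in GV and MIX oocytes was not tested. On library sizes 60.1% of all genes were called lower and 11.9% higher, and 8 of the 9 factors were called lower. The same 8 of 9 were lower there in MII, beside 57.5% of all genes lower and 11.0% higher, and in ‘damaged’ oocytes, beside 56.0% lower and 11.2% higher.

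**Figure D1:**
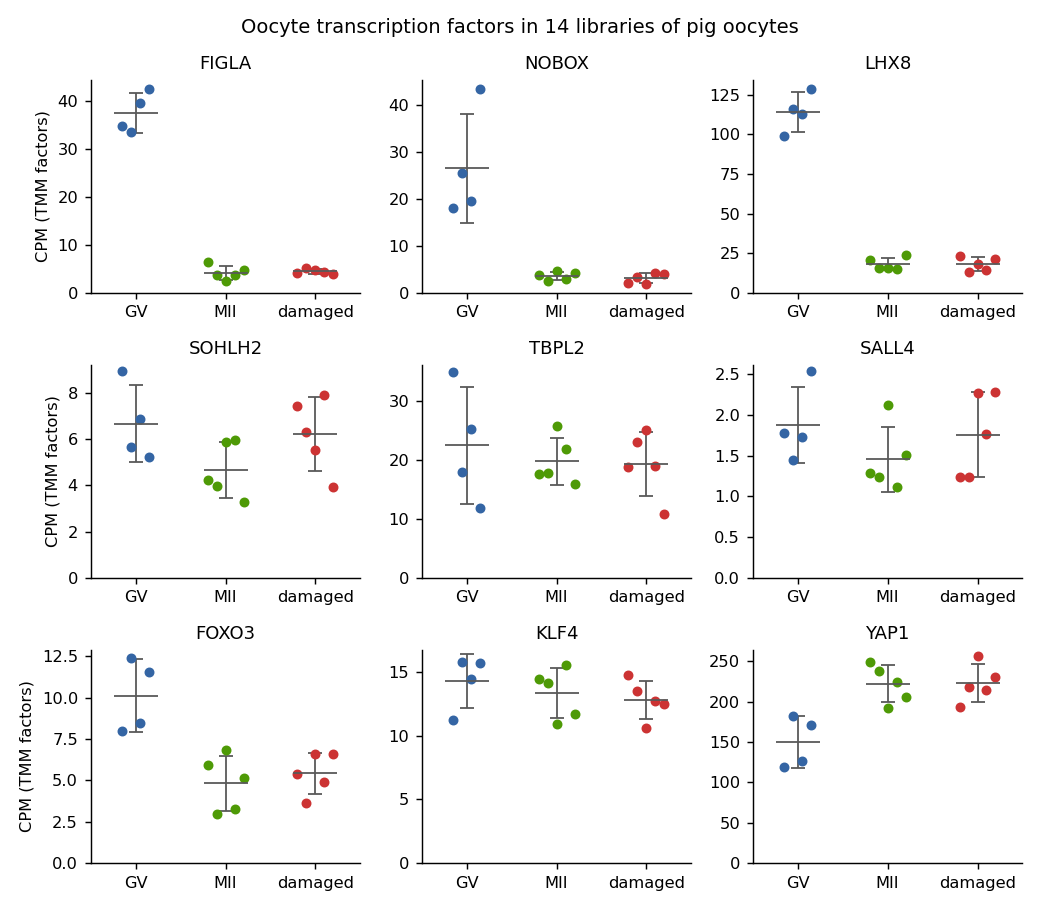
CPM with TMM factors (y axis, linear from 0) of 9 oocyte transcription factors in GV (blue, n = 4), MII (green, n = 5) and damaged (red, n = 5) libraries; points are libraries, the long line is the mean and the bar its SD. *FIGLA*, *NOBOX*, *LHX8* and *FOXO3* were higher in each GV library than in any MII or damaged library, *YAP1* was lower in each, and the other 4 genes overlapped.

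*FIGLA* (ENSSSCG00000008321; chromosome 3, 71709580 to 71723760 in Sscrofa11.1 by RefSeq) encodes a basic helix-loop-helix factor that binds E-boxes of zona pellucida genes. Its level was 34.8, 33.5, 39.6 and 42.5 CPM in GV replicates 1, 2, 4 and 5. In MII replicates 1 to 5 it was 6.30, 3.79, 2.34, 3.66 and 4.75 CPM, and in ‘damaged’ replicates 1 to 5 it was 4.02, 5.20, 4.81, 4.35 and 3.85 CPM. The lowest GV library thus stood above the highest MII or ‘damaged’ library, without overlap, as 29.4% of all genes did in this direction. The mean was 37.6 CPM ± 4.17 (SD, n = 4) in GV and 4.31 CPM ± 1.06 (SD, n = 10) in MIX. The log2 fold change was -3.16 (SE 0.16, FDR 1.89e-12 in limma) and -4.05 on library sizes, and 7.43% of all genes tested had a lower value.

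*NOBOX* (ENSSSCG00000024977; chromosome 9, 113348363 to 113354504) encodes a homeobox factor of the early follicle that binds the *GDF9* promoter in the mouse. Its level in GV replicates 1, 2, 4 and 5 was 18.0, 25.4, 19.5 and 43.3 CPM, the widest relative spread of the 3 DEGs, with replicate 5 well above the others. In MII replicates 1 to 5 it was 3.73, 2.39, 4.63, 2.87 and 4.16 CPM, and in ‘damaged’ replicates 1 to 5 it was 2.02, 3.44, 1.85, 4.10 and 4.02 CPM. The groups before and after maturation did not overlap. In limma *NOBOX* was at a log2 fold change of -2.97 (SE 0.24, FDR 1.12e-09), or -2.69 to -3.11 when each library was left out in turn, and -3.86 on library sizes.

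*LHX8* (ENSSSCG00000003778; chromosome 6, 138074673 to 138102025) encodes a LIM homeobox factor needed for the growth of mouse oocytes. GV replicates 1, 2, 4 and 5 held 98.7, 116, 113 and 129 CPM. MII replicates 1 to 5 held 20.8, 15.5, 15.5, 14.9 and 23.6 CPM, and ‘damaged’ replicates 1 to 5 held 23.2, 12.8, 18.2, 14.1 and 21.1 CPM. MII and ‘damaged’ libraries covered the same range, far below that of GV. The mean went from 114 CPM ± 12.4 (SD, n = 4) to 18.0 CPM ± 3.95 (SD, n = 10), with a log2 fold change of -2.69 (SE 0.15, FDR 5.31e-12 in limma) and -3.59 on library sizes.

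*SOHLH2* (ENSSSCG00000026164) encodes a basic helix-loop-helix factor that pairs with SOHLH1 ahead of *LHX8* and *FIGLA* in the mouse. In GV libraries it was lower than *FIGLA*, *NOBOX* and *LHX8*, and unlike them it was not called with TMM factors. After maturation it overlapped *FIGLA* and *NOBOX* in level. It lay between 5.22 and 8.92 CPM in GV, 3.26 and 5.97 CPM in MII and 3.91 and 7.91 CPM in ‘damaged’ libraries, so that all 3 groups overlapped. The log2 fold change of MIX against GV was -0.31, with a 95% interval from -0.74 to 0.13 and an FDR of 0.189 in limma. On library sizes it was -1.21 and passed the test (FDR 1.33e-05), close to the median of all genes on that scale, while with TMM factors it lay -0.14 from it. *SOHLH1* was not analysed here.

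*TBPL2* (ENSSSCG00000005059; chromosome 1, 184745719 to 184772051) had the widest spread among GV libraries relative to its mean, with 34.9, 18.0, 25.2 and 11.8 CPM in replicates 1, 2, 4 and 5. MII libraries lay between 16.0 and 25.7 CPM and ‘damaged’ libraries between 10.9 and 25.0 CPM, both within the GV range but for the lowest ‘damaged’ library. It was at a log2 fold change of -0.12 (95% interval -0.61 to 0.38, FDR 0.665 in limma), and it was above 0 without GV replicate 1, at 0.15. Its relative *TBPL1*, which encodes a TATA-binding protein relative known best from spermatids, was called higher on both scalings. *TBPL1* rose from 269 CPM ± 71.2 (SD, n = 4) to 1215 CPM ± 152 (SD, n = 10), with a log2 fold change of 2.20 (SE 0.14, FDR 3.74e-11 in limma) and 1.31 on library sizes. Per length, as TPM (levels per transcript length, scaled to the same total in every library), *TBPL2* stood at 0.164 to 0.268 of the *TBPL1* level in GV libraries, 0.032 to 0.056 in MII and 0.031 to 0.058 in ‘damaged’ libraries. This ratio within a library does not depend on the scaling, and its ranges before and after maturation did not overlap. *TBP* itself was not analysed here.

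*SALL4* (ENSSSCG00000053517; chromosome 17, 53082610 to 53103023), a zinc finger factor of pluripotent and germ cells, had the lowest level per length of the 9 genes. It held 1.45 to 2.54 CPM in GV, 1.12 to 2.12 in MII and 1.23 to 2.28 in ‘damaged’ libraries, which is 14 to 61 estimated counts a library. Its log2 fold change was -0.24 (95% interval -0.74 to 0.26, FDR 0.369 in limma), and at this depth a change of the size seen for *FOXO3* would lie outside the interval. *KLF4* (ENSSSCG00000005437; chromosome 1, 248604817 to 248609574), a Krüppel-like zinc finger factor, overlapped in all 3 groups, with 11.2 to 15.8 CPM in GV, 10.9 to 15.6 in MII and 10.6 to 14.7 in ‘damaged’ libraries. Its log2 fold change was -0.13 (95% interval -0.43 to 0.17, FDR 0.428 in limma), and with a filter of 10 CPM in 4 libraries it was called lower, at -0.45 (FDR 0.00808 in limma). All members kept by that filter moved down with it. On library sizes *KLF4* and *SALL4* were called lower at -1.01 and -1.13, close to the median of all genes on that scale.

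*FOXO3* (ENSSSCG00000004387; chromosome 1, 74626673 to 74760323), the forkhead factor that PI3K and AKT signalling keeps out of the nucleus, was the only other member called lower. GV replicates 1, 2, 4 and 5 held 8.00, 12.4, 8.49 and 11.6 CPM. MII replicates 1 to 5 held 5.91, 2.96, 6.85, 3.25 and 5.12 CPM, and ‘damaged’ replicates 1 to 5 held 5.41, 3.61, 6.60, 4.88 and 6.61 CPM. The gap between the lowest GV and the highest MIX library was narrow, 8.00 against 6.85 CPM. This gave a log2 fold change of -1.02 (SE 0.21, FDR 2.0e-04 in limma) and -1.91 on library sizes. In the 8 libraries whose names agreed in both files it was -0.86 with an FDR of 0.0135, past the threshold no longer.

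*YAP1* (ENSSSCG00000031429; chromosome 9, 32811629 to 32924926) was the only member called higher with TMM factors. GV replicates 1, 2, 4 and 5 held 119, 183, 127 and 172 CPM. MII replicates 1 to 5 held 249, 238, 192, 225 and 206 CPM, and ‘damaged’ replicates 1 to 5 held 193, 218, 257, 215 and 230 CPM. With these factors each MIX library was above each GV library, as for 24.3% of all genes in this direction. The log2 fold change was 0.59 (SE 0.13, FDR 3.48e-04 in limma), 0.75 above the median of all genes, and 69.4% of all genes had a lower value. On library sizes the sign turned to -0.30 (FDR 0.0648), still above the median of all genes. With GV replicate 3 included, a library that held 410 CPM against 123 to 190 in the other GV libraries on a common scale, the log2 fold change was 0.31 and the call was lost (FDR 0.166 in limma). With a filter of 10 CPM in 4 libraries the call was lost as well, at 0.27 (FDR 0.0658 in limma). In that library *FOXO3* was also higher, at 21.0 CPM against 8.32 to 12.9, and *TBPL2* was lower, at 4.42 CPM against 12.3 to 36.2.

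**Figure D2:**
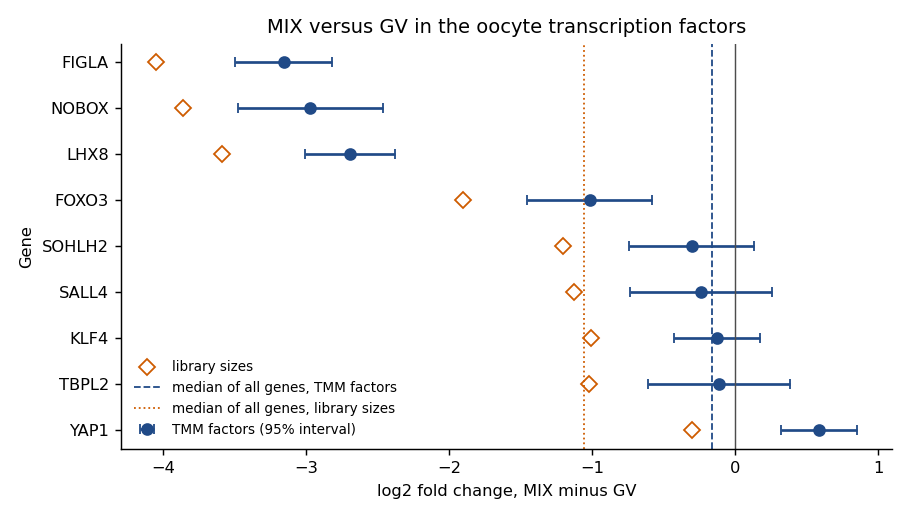
Log2 fold change of MIX minus GV (x axis) of 9 oocyte transcription factors with TMM factors (filled circles, bars are 95% intervals) and on library sizes (open diamonds); vertical lines mark 0 and the medians of all 13219 genes, -0.16 and -1.06. *FIGLA*, *NOBOX* and *LHX8* lay furthest below either median, *SOHLH2*, *SALL4*, *KLF4* and *TBPL2* lay near it, and *YAP1* lay above it on both scales.

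MII and ‘damaged’ oocytes were also set against GV one at a time, in comparisons that share the same 4 GV libraries. *FIGLA* was at a log2 fold change of -3.24 in MII and -3.07 in ‘damaged’ oocytes, *NOBOX* at -2.85 and -3.09, and *LHX8* at -2.68 and -2.70. *FOXO3* was at -1.14 and -0.90 and *YAP1* at 0.58 and 0.59. These were the 5 genes called in either comparison with TMM factors, where 34.2% of all genes were called lower and 28.2% higher in MII, and 33.4% lower and 28.0% higher in ‘damaged’ oocytes. The *FOXO3* call in ‘damaged’ oocytes (FDR 0.00269 in limma) was lost without GV replicate 2, at -0.79, without ‘damaged’ replicate 2, at -0.77, and in the 8 libraries with agreeing names, at -0.70. In those 8 libraries the MII calls of *FOXO3* (-1.02, FDR 0.0129 in limma) and *YAP1* (0.53, FDR 0.0300) were lost too, at fold changes close to those above. *YAP1* was also not called in either comparison with a filter of 10 CPM, at 0.25 in MII (FDR 0.119 in limma) and 0.28 in ‘damaged’ oocytes (FDR 0.0917), or with all 5 GV libraries, at 0.31 in both (FDR 0.239 and 0.234).

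The comparison of ‘damaged’ with MII oocytes asks whether oocytes that lack a polar body after the same culture differ from those that have one. None of the 9 genes was called, and limma called 0 of 13219 genes (0%), as did edgeR and DESeq2. At an unadjusted p under 0.05, limma gave 195 genes (1.48%), none of them a member. The log2 fold change of ‘damaged’ minus MII ran from -0.23 for *NOBOX* to 0.40 for *SOHLH2*. *FIGLA* was at 0.17 (95% interval -0.31 to 0.65), *LHX8* at -0.02 (-0.42 to 0.37) and *YAP1* at 0.01 (-0.28 to 0.29). The interval was widest for *NOBOX*, from -0.95 to 0.48, and for *SOHLH2* it ran from -0.11 to 0.91, so a difference of up to 0.91 on the log2 scale remains within it.

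The order of the 9 genes by level per length turned over between GV and MIX oocytes, and the order of TPM values within a library does not depend on the scaling. Overlap below is of ranges across libraries, and genes that overlap can keep their order within each. *FOXO3* was above *SALL4* in each GV library, and *LHX8* above *FIGLA* in each MII library. In GV libraries *FIGLA*, at 195 TPM ± 47.6 (SD, n = 4), and *LHX8*, at 185 TPM ± 48.0, stood highest and overlapped each other, ahead of *YAP1* at 81.4 TPM ± 27.7. *TBPL2* at 48.4 TPM came next and overlapped *YAP1*, and *NOBOX* at 42.6 TPM overlapped *TBPL2*. Then *KLF4* at 16.6, *SOHLH2* at 6.99, *FOXO3* at 3.37 and *SALL4* at 1.55 TPM followed, and of these only *FOXO3* and *SALL4* overlapped. In MII libraries *YAP1* stood highest at 56.5 TPM ± 3.50 (SD, n = 5), apart from *TBPL2* at 21.7 TPM ± 5.59. *TBPL2*, *LHX8* at 13.8, *FIGLA* at 10.2 and *KLF4* at 7.29 TPM each overlapped the next. *NOBOX* at 2.65 and *SOHLH2* at 2.43 TPM overlapped each other, as did *FOXO3* at 0.766 and *SALL4* at 0.577 TPM. In ‘damaged’ libraries the order was the same but for *SOHLH2* at 3.29 and *NOBOX* at 2.39 TPM, which changed places and whose ranges again overlapped. By mean TPM, *FIGLA* stood above 93.6% of the genes tested in GV and above 66.6% in MIX oocytes, *NOBOX* above 76.8% and 45.6%, and *YAP1* above 85.5% and 86.9%.

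**Figure D3:**
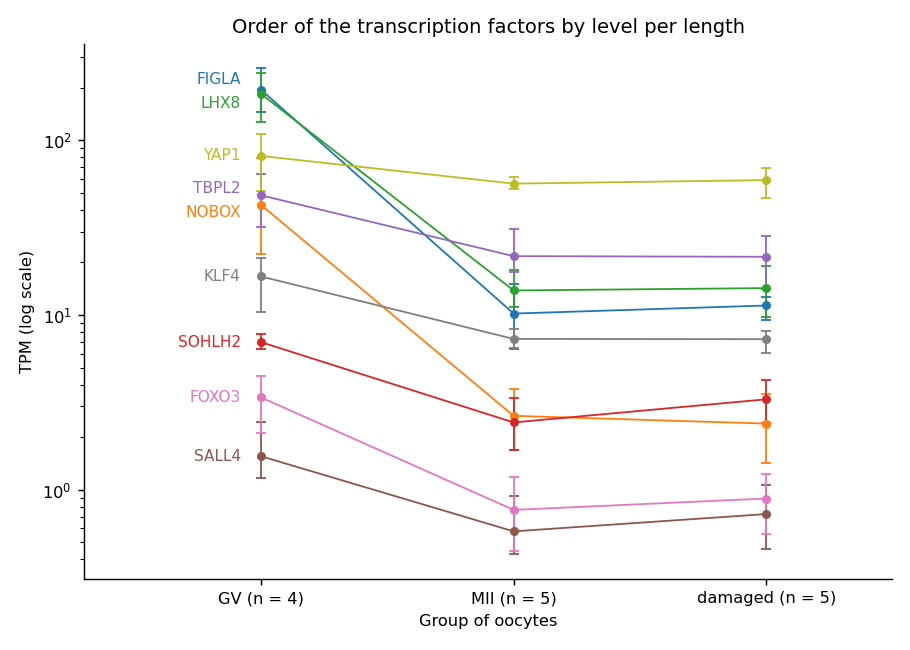
Mean TPM (y axis, log scale) of 9 oocyte transcription factors in GV (n = 4), MII (n = 5) and damaged (n = 5) libraries; bars run from the lowest to the highest library. The lines of *FIGLA* and *LHX8* cross those of *YAP1* and *TBPL2*, and that of *NOBOX* crosses those of *KLF4* and, in damaged libraries, *SOHLH2*; TPM is not scaled between libraries, so the order within a group can be read and a slope cannot.

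The 9 genes had 15 annotated transcripts with counts, 1 each for 4 genes and more for 5, and 13 passed the filter. With limma on the estimated counts per transcript, 7 of the 13 were called, 6 lower and 1 higher, against 30.6% lower and 23.2% higher among all transcripts tested. Of the 6 lower, the *NOBOX* transcript of 1696 bases held fewer than 0.01 counts in each MIX library. The *FIGLA* transcript of 690 bases held 0 to 22.1 counts there. Both passed the filter only through GV libraries, so their direction was set by it. Both *FIGLA* transcripts were called lower and kept their shares, the one of 648 bases taking 89.1% ± 4.64 (SD, n = 4) of the TPM of *FIGLA* in GV and 90.5% ± 9.01 (SD, n = 10) in MIX libraries.

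*NOBOX* had 2 transcripts of nearly equal length, 1696 and 1724 bases, whose shares differed between the stages. The one of 1696 bases (ENSSSCT00000088495.1) held 242, 482, 133 and 534 estimated counts in GV replicates 1, 2, 4 and 5, which is 33.2 to 100% of the TPM of the gene. It held fewer than 0.01 counts in each of the 10 MIX libraries, which had 486 *NOBOX* counts in all. How many of those reads could tell the 2 transcripts apart was not tested, so no limit on its share is given. The other transcript (ENSSSCT00000029776.2) held 109, 0, 272 and 490 counts in those GV replicates and 27.0 to 68.0 counts in MIX libraries, and was not called (FDR 0.935 in limma). GV replicate 3, outside the fit, held 364 counts of the shorter and 0 of the longer transcript. How Kallisto divides reads between transcripts that share most of their sequence was not tested here.

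**Figure D4:**
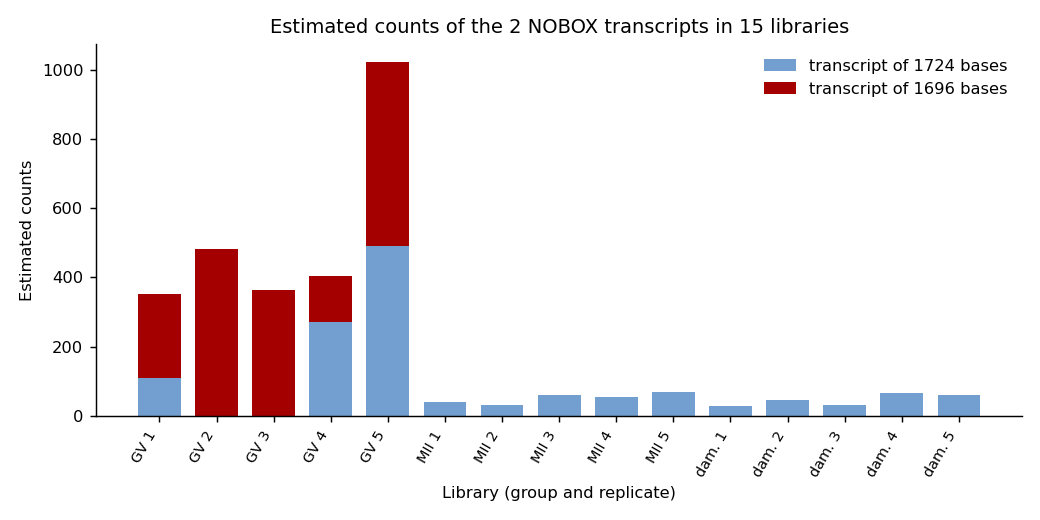
Estimated counts (y axis, stacked bars) of the 2 *NOBOX* transcripts in each of the 15 libraries, those after maturation labelled MII or dam. for damaged. The transcript of 1696 bases was present in all 5 GV libraries and under 0.01 counts in all 10 others, where only the transcript of 1724 bases had counts, up to 68.0.

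The 3 *YAP1* transcripts did not move alike. The main one, of 4473 bases, was called higher at a log2 fold change of 0.54 (SE 0.14, FDR 0.00303 in limma) but stood at -0.20 on library sizes. The longest, of 6825 bases, was called lower at -0.80 (SE 0.24, FDR 0.00989 in limma), and at -1.55 on library sizes. Its share of the TPM of *YAP1*, which needs no scaling, lay between 2.40 and 6.04% in GV and between 0.789 and 2.40% in MIX libraries, adjacent without overlap. Over the 7 shares tested in the 5 genes with more than 1 transcript, an exact permutation test of MIX against GV libraries (two-sided, added after the values were seen) gave an adjusted p of 0.00699 for this one and for the *NOBOX* transcript of 1696 bases, each from the smallest p it allows, 0.0020. With GV replicate 3 included, where the share of the long *YAP1* transcript was 1.13%, its adjusted p was 0.0699 by the same exact test, and that for *NOBOX* was 0.00466. The other 5 shares gave adjusted p-values of 0.0559 to 0.989 by this exact permutation test.

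Genes known to work with these factors or downstream of them were followed in 6 lists that do not hold the factors themselves. Their counts stand beside 30.0% higher and 37.0% lower among all genes tested, and beside 11.9% higher and 60.1% lower on library sizes, and no list was tested against these shares. Of 12 partners and basal factors tested, 7 were called higher, 2 lower and 3 not, and the median log2 fold change was 0.93, against -0.16 over all genes. On library sizes 3 were higher and 4 lower, with a median of 0.03. Besides *TBPL1*, the largest rise was that of *GTF2B*, which encodes the general factor TFIIB, at 2.13 (FDR 2.1e-09 in limma) and 1.24 on library sizes. The falls were *TCF3*, whose protein pairs with FIGLA, at -3.07 (FDR 4.63e-10), from 11.3 to 1.36 CPM, and *LDB1*, a LIM domain-binding cofactor, at -0.55 (FDR 0.00349), on both scalings. *TCF12* and *TCF4* of the same list, named after their values were seen, did not fall with *TCF3*. *TCF12* rose from 45.1 to 94.7 CPM, at 1.09 (FDR 5.1e-07 in limma), and was not called on library sizes, at 0.20. *TCF4* was not called with TMM factors (FDR 0.884 in limma).

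Of 14 known targets of FIGLA, NOBOX, LHX8 or SOHLH2 tested, 3 were called higher, 5 lower and 6 not, with a median of -0.29, and on library sizes 2 were higher and 11 lower. The zona pellucida genes parted. *ZP3* fell from 1828 CPM ± 241 (SD, n = 4) to 95.6 CPM ± 31.5 (SD, n = 10), a log2 fold change of -4.31 (FDR 3.88e-13 in limma). *ZP4* was called lower at -0.62 (FDR 0.00256), while *ZP2* stood at 2281 and 2221 CPM and was not called (log2 fold change -0.04, FDR 0.801 in limma). *ZP1* was not analysed here. The secreted growth factors parted as well. *GDF9* fell from 2008 CPM ± 272 (SD, n = 4) to 321 CPM ± 54.7 (SD, n = 10), at -2.65 (FDR 1.3e-12), and *BMP15* was not called, at -0.16 (FDR 0.370 in limma). On library sizes *ZP2* and *BMP15* were called lower too, at -0.93 and -1.05. The largest rises were those of *OOSP2*, an oocyte-secreted protein gene, at 2.42, and of the oocyte linker histone gene *H1-8*, at 1.31, both also higher on library sizes, at 1.52 and 0.42.

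Of 15 pluripotency and early embryo factors tested, 3 were called higher, 6 lower and 6 not, with a median of -0.46, and on library sizes 0 were higher and 10 lower. The largest falls were those of the zinc finger gene *KLF2*, at -3.97, and *TEAD4*, a partner of YAP1, at -3.76. The largest rises were those of the RNA-binding protein gene *LIN28A*, at 1.42, and *TFCP2L1*, at 0.88, and on library sizes neither was called, at 0.53 and -0.02. In the KLF family, 8 of the 10 genes tested besides *KLF4* were called lower and 2 higher, with a median of -1.38, and on library sizes 8 were lower and 0 higher. *KLF1*, the erythroid factor, fell by 5.05 on the log2 scale, from 7.63 to 0.266 CPM, and *KLF16* by 4.72, from 2.21 to 0.0576 CPM. *KLF8* and *KLF3* were higher with TMM factors, at 1.20 and 1.04, and not called on library sizes, at 0.31 and 0.16.

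Of 17 genes tested of the pathway that controls FOXO proteins, 7 were called higher, 6 lower and 4 not, with a median of 0.45, and on library sizes 2 were higher and 9 lower. *YWHAZ* and *YWHAB*, whose proteins bind phosphorylated FOXO factors, rose by log2 fold changes of 1.65 and 1.64, and by 0.75 and 0.74 on library sizes. The largest falls were those of the tumour suppressor genes *TSC2*, at -3.40, and *STK11*, at -1.72, also on library sizes. *FOXO1*, a relative of *FOXO3*, was called lower at -0.84 (SE 0.14, FDR 2.33e-05 in limma), from 44.2 to 24.4 CPM, and at -1.73 on library sizes. Per length *FOXO3* stood at 0.162 to 0.213 of the *FOXO1* level in GV, 0.101 to 0.195 in MII and 0.116 to 0.231 in ‘damaged’ libraries, ranges that overlapped.

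Of 16 Hippo pathway genes tested, 6 were called higher, 5 lower and 5 not, with a median of -0.06, and on library sizes 0 were higher and 10 lower. YAP1 acts on DNA through TEAD factors. *TEAD4* went from 4.59 to 0.366 CPM, *TEAD3* was lower at -2.31 and *TEAD2* at -2.28, each also lower on library sizes. *TEAD1* stood at 15.2 and 15.3 CPM and was not called. *TEAD1* and *TEAD2* were named after their values were seen. Per length *YAP1* stood between 20.0 and 26.9 times the *TEAD4* level in GV and between 223 and 2039 times it in MIX libraries. *TEAD4* was named for its large fall, so the gap between these ranges follows from that choice. The value of 2039 came from a ‘damaged’ library with *TEAD4* at 0.0334 TPM. *WWTR1*, the relative of *YAP1*, was close to 0, between 0.0421 and 0.408 CPM in GV and between 0.368 and 1.43 CPM in MIX libraries. Its log2 fold change of 2.47 passed the test with TMM factors (FDR 5.79e-04 in limma) and not on library sizes, at 1.54 (FDR 0.0160). Per length *YAP1* stood at 274 to 3842 times the *WWTR1* level in GV, 157 to 527 in MII and 192 to 391 in ‘damaged’ libraries. *NF2*, an upstream brake of the pathway, was called higher at 1.06 with TMM factors and not on library sizes, at 0.18.

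**Figure D5:**
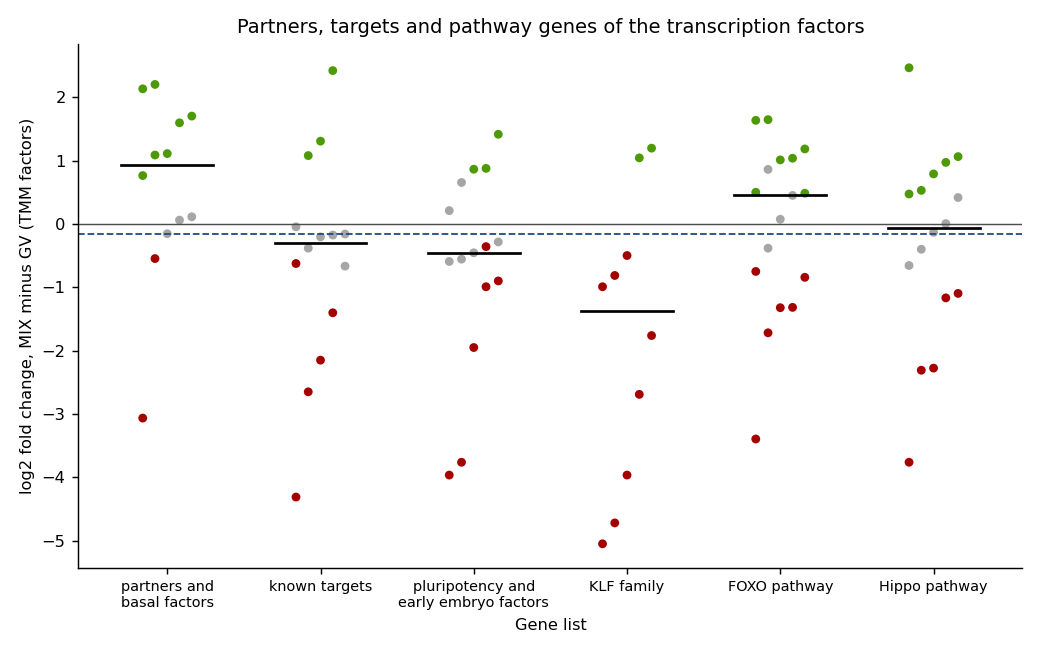
Log2 fold change of MIX minus GV with TMM factors (y axis) of the genes tested in 6 lists (x axis); green points were called higher, red lower and grey not called at an FDR under 0.01, black lines are list medians and the dashed line is the median of all genes, -0.16. Each list held genes called in both directions, and the medians ran from -1.38 in the KLF family to 0.93 in partners and basal factors.

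Across the 14 libraries and 11021 genes with a symbol, the log2 CPM of *FIGLA* was most like that of the phosphorylase kinase gene *PHKG2* (Pearson r 0.989), that of *NOBOX* like *FZR1* (0.986) and that of *LHX8* like the calmodulin gene *CALM3* (0.991). For these 3 genes the difference between GV and MIX libraries makes up most of the pattern, and 246 to 608 genes had an r over 0.95 with each of them. *FOXO3* was most like *GAA* (0.946) and *YAP1* like *RCBTB1* (0.947), with 0 genes over 0.95. For the genes not called, the nearest were *SCOC* for *TBPL2* (0.907), *EIF4E1B*, an oocyte gene of the cap-binding family, for *SALL4* (0.876), *MYLK* for *KLF4* (0.853) and *TMEM45A* for *SOHLH2* (0.803). The libraries of a group share their stage and scaling, so these values describe the 14 libraries and were not tested.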

How the data were processed

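RNAseq files of 15 pig libraries were used, grouped by their labels. The authors made the estimated counts and TPM values per transcript with Kallisto (0.43 in the submitters' processing notes) from the Sscrofa11.1 transcriptome, not normalised across libraries, as deposited. The authors made the estimated counts per gene with tximport (lengthScaledTPM), which scales TPM and transcript length to each library's total. Of the 15 columns of that deposited table, 8 had the total of the library they name. The other 7 columns of per-library values had the total of another library and were not used here.

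The transcripts of 17809 of 22516 genes were found by matching transcript TPM to those 8 columns. Their gene counts, recomputed for all libraries by the same formula, held at least 99.989% of each library's counts. The largest difference from a deposited count of 10 or more was 6.44e-05%. A total of 13884 genes had a symbol by gene identifier. Positions are from RefSeq (Sscrofa11.1) by symbol.

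The limma package (3.58.1; voom, lmFit and eBayes) was run on the gene counts kept by filterByExpr of edgeR 4.0.16 (minimum count 10), with TMM factors and 1 fit of 3 groups (GV n = 4, MII n = 5, ‘damaged’ n = 5). FDR is Benjamini-Hochberg adjusted over all genes. Transcripts were fitted likewise. As the methods name no normalisation factors, library sizes were the first alternative. The study names both filterByExpr and a minimum of 10 CPM, and the latter was tried as an alternative. DESeq2 1.42.0, edgeR, other filters, summed counts, all 5 GV libraries, a replicate block, 8 libraries with agreeing names (chosen after seeing the data) and leaving out each library were the others. P-values measure the spread between pools of oocytes. On simulated data, 200 of 200 genes given a log2 change of 3 were recovered, with 0 false calls, in MIX versus GV and in ‘damaged’ versus MII, over 13219 genes. These genes were changed up and down alike at a dispersion of 0.05. The simulation did not try small changes, genes with low counts or a shift of most genes, so it does not test the scaling.

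The members and lists were chosen with earlier results of these data known. Named were all members, the 2 largest rises and 2 largest falls called in each list, *TBP*, *TBPL1*, *SOHLH1*, *FOXO1*, *WWTR1*, *ZP1* to *ZP4*, *GDF9* and *BMP15*, and the gene most correlated with each member. Python 3.11.15 with scipy 1.17.1 was used for summaries.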

Additional observations from a re-analysis of the deposited data

How the results depend on the processing

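Calls and counts of genes were recomputed under 23 alternatives, or fewer where a gene failed the filter. The count of member transcripts was not recomputed with edgeR, DESeq2, the filter of 10 CPM or summed counts, transcript shares were recomputed only with all 5 GV libraries, and TPM ratios under no alternative. The calls and directions of *FIGLA*, *NOBOX* and *LHX8* against GV held under all of them. On library sizes *FIGLA* reached at most 5.17 CPM and *NOBOX* at most 4.07 CPM in MIX libraries. The filter of 10 CPM thus kept these genes only through GV libraries, so that setting is no check of their direction. On library sizes 8 members were called, 0 higher and 8 lower, in each of the 3 comparisons with GV, 11 member transcripts were called in place of 7, and *YAP1* stood at -0.30 (MIX), -0.33 (MII) and -0.28 (‘damaged’). The scaling itself moves all genes there. With a filter of 10 CPM in 4 libraries and with all 5 GV libraries, 0 members were higher in each of these comparisons, where *YAP1* stood at 0.25 to 0.31. *KLF4* was called lower under that filter in MIX (-0.45, FDR 0.00808 in limma). In the 8 libraries with agreeing names, 3 members were called in MII, 0 of them higher, as *FOXO3* (-1.02, against -1.14) and *YAP1* (0.53, against 0.58) missed the threshold there at similar fold changes. *TBPL2*, called only on library sizes, was above 0 with all 5 GV libraries (0.26 in MIX, 0.30 in MII, 0.23 in ‘damaged’) and in the 8 libraries (0.18, 0.31, 0.054), as was *SALL4* in ‘damaged’ oocytes there (0.027). Leaving out 1 library, *TBPL2* ranged from -0.40 to 0.15 in MIX, -0.36 to 0.18 in MII and -0.43 to 0.11 in ‘damaged’, *SOHLH2* from -0.22 to 0.078 and *SALL4* from -0.20 to 0.071 in ‘damaged’ oocytes, and 4 to 5 members were called there. 5 to 8 member transcripts were called when 1 library was left out. The cause of these shifts was not tested.

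List counts changed by over 1.5 times beyond library sizes as follows. With the filter of 10 CPM, 8 targets were lower in place of 5, 1 pluripotency factor was higher in place of 3, 1 KLF gene higher in place of 2 and 4 lower in place of 8, 4 FOXO pathway genes higher in place of 7, and 3 Hippo genes higher and 3 lower in place of 6 and 5. That filter kept 7464 genes, with 2622 called higher and 3016 lower. *LIN28A*, *TFCP2L1*, *KLF6*, *KLF8* and *KLF16*, with means of at most 4.70 CPM in GV and MIX, did not pass it. Part of these drops are thus genes left untested. In the 8 libraries, 1 partner was lower in place of 2, 1 pluripotency factor higher in place of 3, 1 KLF gene higher in place of 2 and 4 FOXO pathway genes higher in place of 7. Of 13840 genes tested there, 3261 were called higher and 4218 lower. Without GV replicate 5, 1 partner was lower and 1 KLF gene higher, each in place of 2, while 3730 of 13322 genes tested were called higher and 4671 lower.

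With the replicate number as a block, 5 members were called in MIX, 1 higher and 4 lower, as without it, and 6 transcripts. The sources used here do not say whether equal numbers mark the same collection, and the main fit did not pair them. The deviations of same-numbered libraries correlated over 0.1 in 3 of 13 pairs (-0.10 to 0.32), and the library's own number was the best match in 6 of 13. The block changed no call of a member. In ‘damaged’ versus MII oocytes the smallest FDR over all genes was 0.0232 in limma with the block and 0.99986 without it, with 0 genes called in both.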
